A study of Capra hircus with 12 samples.

Results

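The genes described here are 9 zinc transporters and the zinc-sensing transcription factor MTF1, measured by RNA-seq in cultured cells of the goat temporomandibular joint (TMJ). They were 10 genes of the 28910 in the count tables, taken by symbol, and all 10 had enough reads to be tested in every comparison. SLC39A10 was selected for its fall with LOXL2 in middle layer cells, so its values in the libraries of that layer are a description without a test. SLC39A8 and MTF1 were included for their role in osteoarthritis and the other members for their function. The members were chosen with earlier results of these data known. Shares of members set beside those of all genes are therefore descriptions.

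Cells came from the condylar fibrocartilage of female goats under a year old. The superficial layer (SLC) and the middle cartilage layer (MLC) were digested apart, and the cells were frozen, expanded in serum-containing medium and used after several passages. There were 3 libraries with IL-1β and 3 with IL-1β+LOXL2 from each layer, which makes 12 libraries in 4 groups. All 12 libraries had IL-1β, an inflammatory cytokine, given for an hour, and the LOXL2 groups had in addition an Ad5-LOXL2 adenovirus, which carries the collagen cross-linking enzyme lysyl oxidase-like 2, overnight beforehand. Cells without IL-1β were not analysed here, so no value below is a response to IL-1β. An empty adenovirus is named for another experiment on these goat cells but not for the sequenced IL-1β libraries, so effects of LOXL2 and of the virus cannot be told apart here. The labels do not say whether replicates were separate animals or cultures, and p-values then measure only the spread between these samples, which may be technical.

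Cells keep free zinc very low by moving it across membranes. Transporters of the SLC39 (ZIP) family bring zinc into the cytosol, from outside the cell or out of the endoplasmic reticulum and Golgi, and those of the SLC30 (ZnT) family take it out again. MTF1 binds DNA at metal response elements when zinc is high and switches on metallothionein genes and SLC30A1. In cartilage, the importer SLC39A8 and MTF1 are known from mouse osteoarthritis models, in which zinc that enters through SLC39A8 activates MTF1 and matrix-degrading enzymes are made.

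Library totals ranged from 14158607 to 28931652 counts. The SLC IL-1β+LOXL2 libraries lay far apart. Genes of a library differed from the other two of its group by a median on the log2 scale of 0.408 for the first of them, 0.345 for the second and 0.116 for the third, against 0.0999 to 0.140 for the 6 IL-1β libraries. The first MLC IL-1β+LOXL2 library was the most distant of its group, at 0.247. Results that rest on these libraries are given with and without them. The goat LOXL2 gene did not have more reads where LOXL2 was added. Its log2 fold change was -0.27 in SLC (edgeR adjusted p = 0.106) and -0.066 in MLC (edgeR adjusted p = 0.595), and directions given for LOXL2 rest on the labels. The cartilage collagen COL2A1 averaged at most 0.0152 CPM (read counts scaled to a common library size) in SLC and 16.6 CPM in MLC with IL-1β, while COL1A1 of fibrous tissue averaged at least 32061 CPM in each group. Summed endothelial markers stayed between 2.92 and 5.23 CPM over the 12 libraries. The sum of 8 chondrocyte markers was 1303.2 to 1428 CPM in SLC with IL-1β and 748 to 1302.5 CPM with IL-1β+LOXL2. It was led by COL11A1 (means of 1232 and 859 CPM), while COMP went the other way (62.0 and 80.8 CPM). In MLC the sum overlapped, at 1766.5 to 1915 CPM and 1483 to 1871 CPM. The sum of 5 muscle markers, led by ACTA2, was 833 to 929 CPM in MLC with IL-1β and 1082 to 1397 CPM with IL-1β+LOXL2. ACTA2 averaged 864 and 1255 CPM there, whereas MYH11 did not rise (27.3 and 26.8 CPM). In SLC the muscle sum overlapped, at 1405 to 1826 CPM and 1722 to 2031 CPM. Their part in the differences with LOXL2 was not tested.

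Levels are given as CPM after TMM scaling over the 12 libraries, in replicate order. CPM is not divided by transcript length, so levels are compared between libraries for 1 gene and not between genes. The SE and the adjusted p beside a log2 fold change come from edgeR (glmQLFTest, Benjamini-Hochberg over all tested genes), and a call means an adjusted p under 0.05. In these bulk samples, fewer cells of a type and less RNA per cell cannot be told apart.

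**Figure D1:**
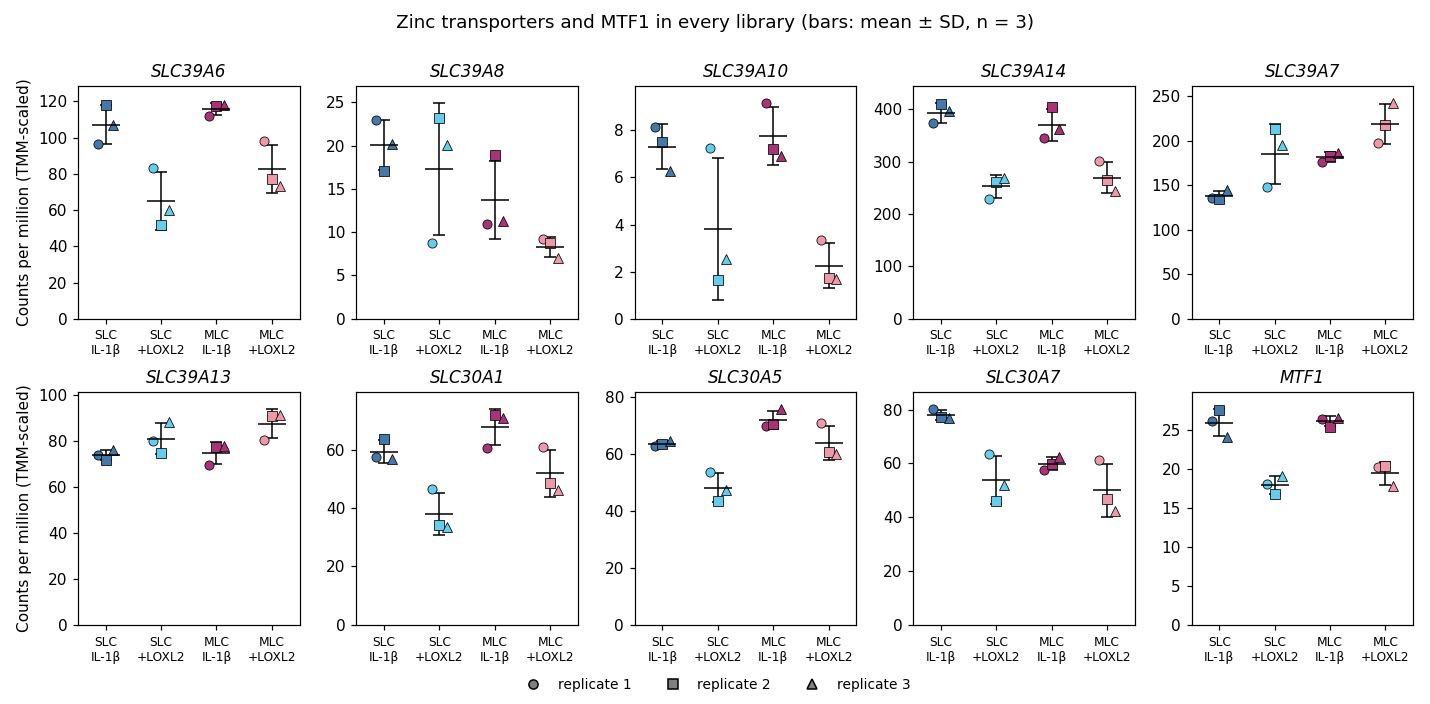
Level of each of the 10 genes (CPM, linear axis from 0) in the 12 libraries. Points are libraries, marked by replicate number, and bars are the mean ± SD of 3 libraries. MTF1 was below every IL-1β library in every IL-1β+LOXL2 library of its layer, whereas the first IL-1β+LOXL2 library of each layer (circles) often lay nearer to the IL-1β libraries, as for SLC39A10.

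Among the importers of the cell surface, SLC39A14 had lower levels with LOXL2 in both layers. SLC39A14 carries zinc, manganese and non-transferrin-bound iron, and is known to be induced by inflammatory cytokines in liver. In SLC it stood at 373, 410 and 397 CPM with IL-1β and at 228, 262 and 269 CPM with IL-1β+LOXL2. In MLC it stood at 345, 404 and 362 CPM with IL-1β and at 301, 265 and 243 CPM with IL-1β+LOXL2. The groups did not overlap in either layer. The fall in MLC passed the threshold of 0.05, with a log2 fold change of -0.46 (SE 0.10, edgeR adjusted p = 0.0199). In SLC the log2 fold change was -0.65 (SE 0.10) and the edgeR adjusted p was 0.0706.

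SLC39A6 (ZIP6, also called LIV-1) and SLC39A10 (ZIP10) are close relatives that are known to form a joint importer. SLC39A6 stood at 96.4, 118 and 107 CPM in SLC with IL-1β and at 83.0, 51.7 and 60.2 CPM with IL-1β+LOXL2. In MLC the levels were 112, 118 and 118 CPM and 97.9, 77.4 and 73.3 CPM. Every library with LOXL2 was below every library of its layer without it. In both layers the first LOXL2 library was the highest of its group. The log2 fold change was -0.48 in MLC (SE 0.11, edgeR adjusted p = 0.0207) and -0.74 in SLC (SE 0.19, edgeR adjusted p = 0.0706).

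SLC39A10 was the member with the fewest counts. In MLC, the contrast it was chosen for, it had 130, 110 and 104 counts with IL-1β and 65, 24 and 31 with IL-1β+LOXL2. These are 9.15, 7.19 and 6.92 CPM against 3.35, 1.72 and 1.68 CPM, a log2 fold change of -1.76 (SE 0.26), given without a test. In SLC, which the choice did not use, it had 158, 169 and 127 counts with IL-1β (8.16, 7.49 and 6.27 CPM) and 159, 44 and 56 with IL-1β+LOXL2 (7.25, 1.63 and 2.55 CPM). The first LOXL2 library lay within the IL-1β range and the other 2 lay well below it. The log2 fold change in SLC was -0.96 (SE 0.50, edgeR adjusted p = 0.172). Without that library it was -1.85 with an edgeR adjusted p of 6.69e-05, and without the second LOXL2 library it was -0.58 with an adjusted p of 0.311.

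SLC39A8 (ZIP8) carries zinc, manganese and cadmium. In MLC it stood at 10.9, 19.0 and 11.3 CPM with IL-1β and at 9.18, 8.79 and 6.99 CPM with IL-1β+LOXL2. The groups did not overlap, and the second IL-1β library was the highest of the 6. The fall passed the threshold with a log2 fold change of -0.73 (SE 0.21, edgeR adjusted p = 0.0319). Without that second IL-1β library the log2 fold change was -0.42 (adjusted p = 0.108). In SLC the levels were 23.0, 17.1 and 20.1 CPM with IL-1β and 8.71, 23.1 and 20.05 CPM with IL-1β+LOXL2, so that the first LOXL2 library alone lay below the IL-1β range. The SLC log2 fold change of -0.23 (SE 0.33, edgeR adjusted p = 0.596) became 0.085 without that library and -0.49 without the second LOXL2 library.

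SLC39A7 and SLC39A13 release zinc from the endoplasmic reticulum and the Golgi into the cytosol. SLC39A13 is known for a form of Ehlers-Danlos syndrome with skeletal and connective tissue changes. Their log2 fold changes with LOXL2 were above 0 in both layers and those of the other 8 members below 0. The 8 include SLC39A10, whose sign in MLC was fixed by its choice on that contrast. Over all tested genes, 50.7% were above 0 in SLC and 50.9% in MLC, and 49.3% and 49.1% below 0. SLC39A7 stood at 135, 134 and 144 CPM in SLC with IL-1β and at 148, 213 and 195 CPM with IL-1β+LOXL2. In MLC it stood at 176, 183 and 186 CPM and at 197, 218 and 242 CPM. The groups did not overlap in either layer, yet neither difference passed the threshold. The log2 fold change was 0.41 in SLC (SE 0.14, edgeR adjusted p = 0.0818) and 0.27 in MLC (SE 0.095, edgeR adjusted p = 0.0585). SLC39A13 ranged from 71.7 to 76.0 CPM in SLC with IL-1β and from 74.9 to 88.5 CPM with IL-1β+LOXL2. In MLC it ranged from 69.5 to 77.8 CPM and from 80.4 to 91.3 CPM, without overlap in that layer. Its log2 fold changes of 0.12 in SLC and 0.22 in MLC did not pass (edgeR adjusted p = 0.389 and 0.107).

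SLC30A1 (ZnT1), the zinc exporter of the plasma membrane, is a textbook target of MTF1. In SLC it stood at 57.4, 63.8 and 56.9 CPM with IL-1β and at 46.4, 34.2 and 33.7 CPM with IL-1β+LOXL2, without overlap. In MLC it stood at 60.7, 71.7 and 70.7 CPM and at 60.9, 48.6 and 46.1 CPM. Here the first LOXL2 library was level with the lowest IL-1β library. The fall in MLC passed the threshold, with a log2 fold change of -0.39 (SE 0.12, edgeR adjusted p = 0.0401). In SLC the log2 fold change was -0.65 (SE 0.15, edgeR adjusted p = 0.0706).

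SLC30A5 and SLC30A7 load zinc into the secretory pathway, where enzymes such as alkaline phosphatase receive it. In SLC, SLC30A5 stood at 62.6, 63.3 and 64.3 CPM with IL-1β and at 53.5, 43.3 and 47.4 CPM with IL-1β+LOXL2. SLC30A7 stood at 80.1, 77.1 and 76.8 CPM and at 63.5, 46.2 and 52.1 CPM. Neither gene's groups overlapped in SLC, and the log2 fold changes were -0.41 (SE 0.11) and -0.55 (SE 0.14), both with an edgeR adjusted p of 0.0706. In MLC both genes overlapped between treatments, because the first LOXL2 library lay within the IL-1β range. SLC30A5 was at 69.8, 70.3 and 75.5 CPM against 70.6, 60.6 and 59.9 CPM. SLC30A7 was at 57.5, 60.0 and 62.3 CPM against 61.2, 46.8 and 42.3 CPM. Neither MLC difference passed the threshold, with log2 fold changes of -0.18 (edgeR adjusted p = 0.201) and -0.26 (adjusted p = 0.149).

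MTF1 itself stood at 26.1, 27.4 and 24.0 CPM in SLC with IL-1β and at 18.1, 16.7 and 19.0 CPM with IL-1β+LOXL2. In MLC it stood at 26.3, 25.4 and 26.5 CPM and at 20.2, 20.4 and 17.7 CPM. The groups did not overlap in either layer, and in contrast to most members the first LOXL2 library did not stand out from its group. The fall in MLC passed the threshold, with a log2 fold change of -0.43 (SE 0.11, edgeR adjusted p = 0.0239). In SLC the log2 fold change was -0.55 (SE 0.11, edgeR adjusted p = 0.0706).

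In MLC, therefore, 5 of the 9 members that could be tested fell with LOXL2 (SLC39A6, SLC39A8, SLC39A14, SLC30A1 and MTF1) and 0 rose. Among all 13664 tested genes, 11.8% were called lower and 9.81% higher by edgeR. Groups did not overlap for 4 of the 9 on the lower side and 2 on the higher side, against 20.5% and 21% of all genes. These calls rested on few libraries. Without the first, the second or the third MLC IL-1β library, or without the second LOXL2 library, 0 members passed, and without the third LOXL2 library only SLC39A14 did (adjusted p = 0.0496). Calls over all genes also fell in these fits, to between 0 and 610 lower. Without the first LOXL2 library 7 of the 9 members were lower and 2 higher (SLC39A7 and SLC39A13), where 24.4% of all genes were called lower and 23.7% higher. In a fit on all 12 libraries 0 members and 0 genes passed for this contrast.

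In SLC, 0 of the 10 members and 0% of all 14103 tested genes passed with edgeR. At an unadjusted p under 0.05, 6 members were lower and 1 higher, against 20.2% and 23.1% of all genes. The groups did not overlap for the same 7 members (SLC39A6, SLC39A14, SLC30A1, SLC30A5, SLC30A7 and MTF1 lower, SLC39A7 higher), against 23.5% lower and 25.5% higher of all genes. DESeq2's Wald test called those 6 lower and 0 higher, where it called 14.1% of genes lower and 16.3% higher. The fit on all 12 libraries called the same 6 lower and SLC39A7 higher, where 18.5% and 22.5% of all genes were called. Without the first LOXL2 library, edgeR called 7 lower and 1 higher, where 30.8% and 31% of all genes were called. The 7 were the 6 above and SLC39A10. Median log2 fold changes over the members were -0.55 in SLC and -0.41 in MLC, against 0.013 and 0.0079 over all tested genes, and the MLC median includes SLC39A10, which was chosen on that contrast.

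**Figure D2:**
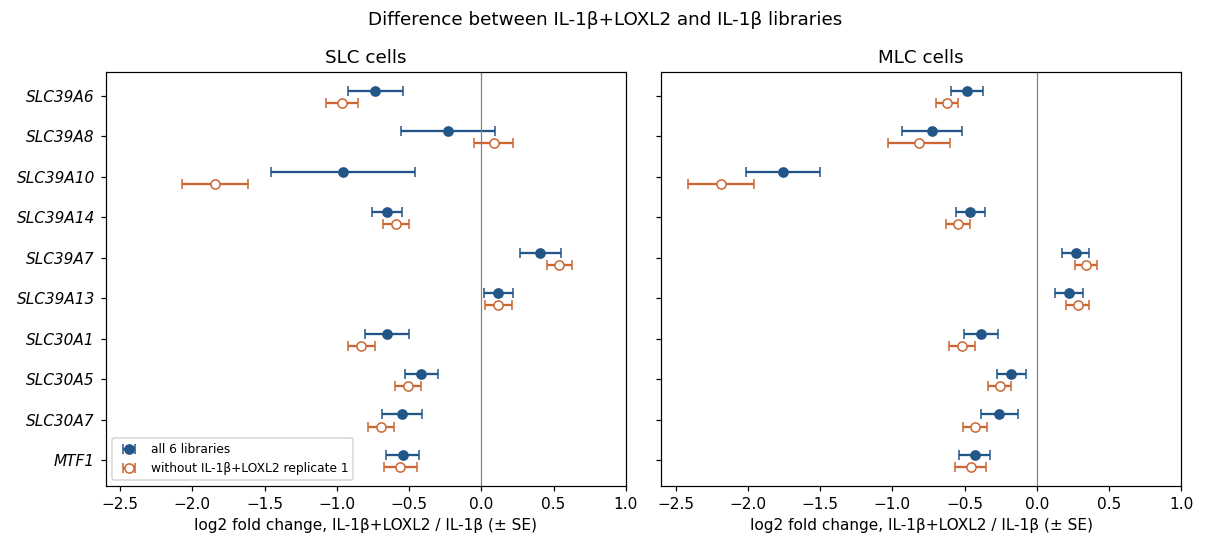
Log2 fold change of each gene between IL-1β+LOXL2 and IL-1β libraries (horizontal axis, ± SE from edgeR) in SLC (left) and MLC (right). Filled points use all 6 libraries of a layer and open points leave out the first IL-1β+LOXL2 library. Points of 8 genes lie below 0 and those of SLC39A7 and SLC39A13 above 0 when all libraries are used, and in SLC the value of SLC39A10 moves from -0.96 to -1.85. The 8 include SLC39A10, which was chosen for its fall in MLC.

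The members differ widely in the stretch of genome they span, and the LOXL2 differences over all genes moved with that span. Across genes, Spearman's rho between log2 fold change and span (introns included) was -0.49 in both layers. Genes are not independent replicates, and this is a description. In MLC the median log2 fold change was 0.29 in the shortest 10% of genes and -0.30 in the longest 10%. The 2 members with fold changes above 0 are short, with SLC39A7 on chromosome 23 (41291830 to 41295973, build ARS1.2) spanning 4144 bases and SLC39A13 on chromosome 15 (5740625 to 5747839) spanning 7215 bases. SLC39A10 on chromosome 2 (51612010 to 51722855) is the longest member, with 110846 bases. SLC30A7 on chromosome 3 (78094049 to 78192851) and SLC39A8 on chromosome 6 (22728536 to 22811009) span 98803 and 82474 bases.

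Several members, among them SLC30A1 and SLC39A6, lay below the trend over genes of like span. SLC30A1 on chromosome 16 (70526359 to 70534097) spans only 7739 bases, close to SLC39A13, and SLC39A6 on chromosome 24 (21319401 to 21341316) spans 21916 bases, near the median of 21235 over genes tested in MLC. When the trend on span was removed from the MLC libraries, 3 members were still lower past the threshold, against 6.87% of all genes. These were SLC39A6 (log2 fold change -0.48, edgeR adjusted p = 0.0213), SLC39A14 (-0.30, adjusted p = 0.0341) and SLC30A1 (-0.52, adjusted p = 0.0266). SLC39A8 (-0.50, adjusted p = 0.107) and MTF1 (-0.28, adjusted p = 0.0654) no longer passed. No member was higher past the threshold, against 7.79% of all genes. The value of SLC39A10 was -1.51 and that of SLC30A7 was -0.010. The values of SLC39A7 and SLC39A13 shrank to 0.078 and 0.067. SLC39A14 on chromosome 8 (69335236 to 69386159) spans 50924 bases, MTF1 on chromosome 3 (12698723 to 12744794) 46072 and SLC30A5 on chromosome 20 (10533383 to 10567698) 34316. In SLC, removing the trend left 0 members and 0 genes past the threshold, as before. The values there moved from 0.41 to 0.11 for SLC39A7, from -0.55 to -0.19 for SLC30A7, from -0.65 to -0.40 for SLC39A14, from -0.55 to -0.33 for MTF1 and from -0.96 to -0.66 for SLC39A10. SLC39A8 and SLC39A13 changed sign, to 0.17 and -0.10. SLC39A6 was at -0.73, SLC30A5 at -0.30 and SLC30A1 at -0.85. The part that span has in the differences was not tested beyond this fit.

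**Figure D3:**
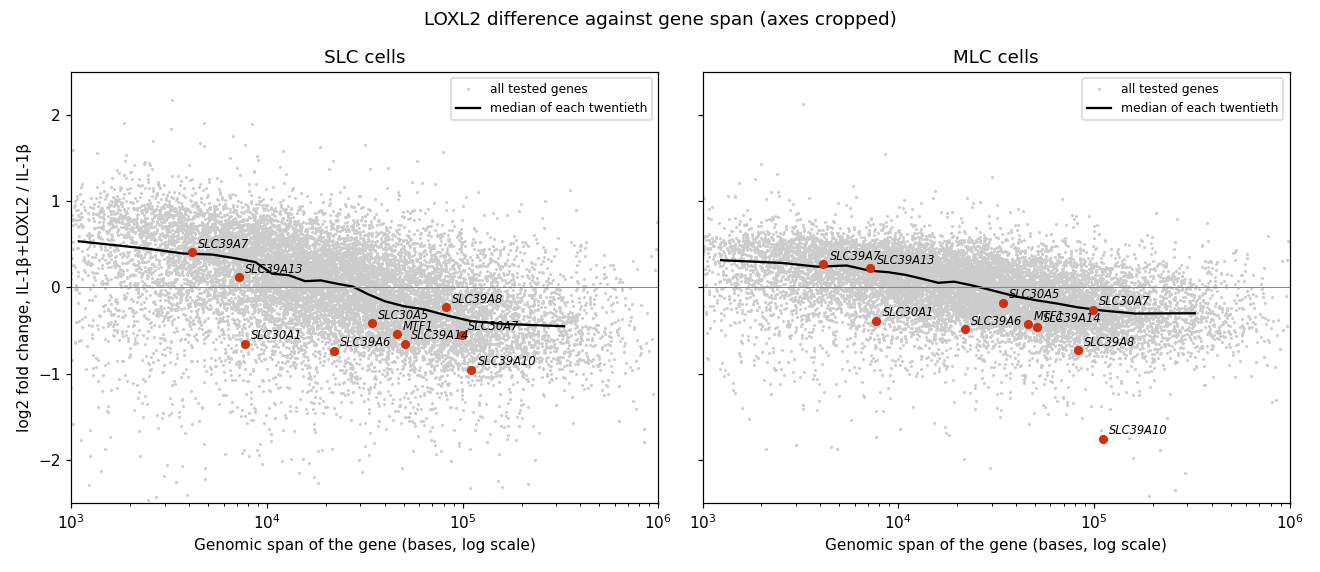
Log2 fold change between IL-1β+LOXL2 and IL-1β libraries (vertical axis, cropped at ±2.5) against the genomic span of each gene in bases (log axis, cropped) in SLC and MLC. Grey points are all tested genes with a span, the black line joins the medians of 20 equal groups of genes ordered by span, and red points are the zinc genes. SLC39A7 and SLC39A13 sit at the short end above 0, SLC30A1 is as short but lies below 0 in both layers, and SLC39A10 is the lowest red point.

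The layers were compared next within each treatment, as MLC over SLC. Under IL-1β, SLC39A7 was higher and SLC30A7 lower in MLC. The 3 MLC levels of SLC39A7 (176 to 186 CPM) were all above the 3 SLC levels (134 to 144 CPM), with a log2 fold change of 0.40 (SE 0.059, edgeR adjusted p = 6.78e-05). SLC30A7 was lower at 57.5 to 62.3 CPM in MLC against 76.8 to 80.1 CPM in SLC, with a log2 fold change of -0.38 (SE 0.062, edgeR adjusted p = 1.72e-04). SLC39A7 passed in all 13 alternative fits and SLC30A7 in 12, the exception being the fit on all 12 libraries (adjusted p = 0.0654).

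SLC39A8 and SLC30A5 also passed under IL-1β, less firmly. SLC39A8 was lower in MLC (log2 fold change -0.54, SE 0.17, edgeR adjusted p = 0.0198), although the second MLC library, at 19.0 CPM, lay within the SLC range of 17.1 to 23.0 CPM. The call of SLC39A8 held in 8 of 13 alternative fits. It was lost without the first (edgeR adjusted p = 0.0921) or the third (0.0573) SLC library or without the first (0.0857) or the third (0.0982) MLC library. The fit on all 12 libraries lost it too (adjusted p = 0.232). Without the second MLC library its log2 fold change was -0.85. SLC30A5 was higher in MLC at 69.8 to 75.5 CPM against 62.6 to 64.3 CPM (log2 fold change 0.18, SE 0.062, adjusted p = 0.0246). It passed in 6 of 13 alternative fits, and not without the first (edgeR adjusted p = 0.0744) or the second (0.0676) SLC library or the third MLC library (0.135). In all, 2 of 9 members were called higher and 2 lower, where 24.2% of all 13965 tested genes were higher and 22.7% lower. Groups did not overlap for 2 higher and 1 lower, against 28.1% and 27.8% of genes. The members were thus called about as often as genes in general. SLC39A6 (0.11), SLC39A14 (-0.083), SLC39A13 (0.023), SLC30A1 (0.19, adjusted p = 0.0508) and MTF1 (0.014) did not pass. The log2 fold change of SLC39A10, given without a test because its MLC libraries chose it, was 0.087.

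**Figure D4:**
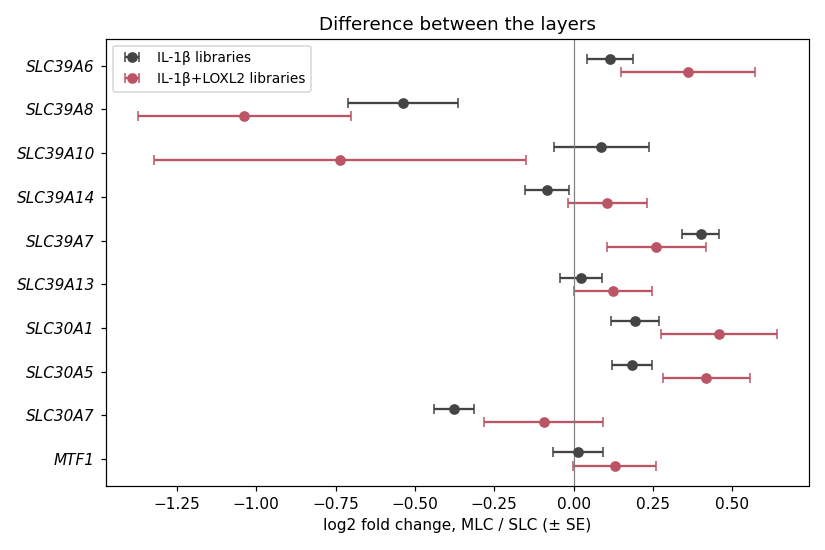
Log2 fold change of each gene between MLC and SLC (horizontal axis, ± SE from edgeR) in IL-1β libraries (grey) and in IL-1β+LOXL2 libraries (red). Under IL-1β, SLC39A7 lies at 0.40 and SLC30A7 at -0.38, and SLC39A8 lies below 0 under both treatments with wider errors under IL-1β+LOXL2.

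Under IL-1β+LOXL2, 0 of 9 members passed in the fit without a replicate block, where 9.27% of 14085 genes were called higher in MLC and 6.83% lower. At an unadjusted p under 0.05, 2 members were higher and 1 lower, against 15.4% and 14.3% of genes. SLC39A8 had a log2 fold change of -1.04 (SE 0.34, edgeR adjusted p = 0.0796), with MLC at 6.99 to 9.18 CPM and SLC at 8.71 to 23.1 CPM. SLC30A5 was the member whose groups did not overlap, at 59.9 to 70.6 CPM in MLC and 43.3 to 53.5 CPM in SLC (log2 fold change 0.42, edgeR adjusted p = 0.0850), and 18% of all genes were higher in this way and 17% lower. Deviations of same-numbered libraries of the LOXL2 groups correlated at 0.168 to 0.605, and those with different numbers at up to 0.450. An alternative fit treated the numbers as pairs, a pairing taken from these same libraries and not from the labels. Its calls are therefore a description. With the replicate block, 3 members were higher in MLC and 1 lower, against 14.4% and 13.2% of all genes. These were SLC39A6 (0.38, edgeR adjusted p = 0.0402), SLC30A1 (0.46, adjusted p = 0.0112) and SLC30A5 (0.42, adjusted p = 0.0169), and SLC39A8 (-0.95, adjusted p = 0.0330). Without the first SLC LOXL2 library and with no block, the same 4 passed, where 16.8% of genes were higher and 16.1% lower. SLC39A8 was then at -1.35 (adjusted p = 3.34e-04). The log2 fold change of SLC39A10 was -0.74 (SE 0.59), 0.16 without that library and -1.15 without the first MLC library.

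The LOXL2 differences of both layers were set against each other as an interaction term. Of 9 members, 0 passed, as did 0% of all 14534 genes, and 0 members had an unadjusted p under 0.05 in edgeR, against 2.26% of genes. The difference of the log2 fold changes (MLC minus SLC) ranged from -0.51 for SLC39A8 (SE 0.44) to 0.28 for SLC30A7 (SE 0.20), and it was -0.81 for SLC39A10 (SE 0.62, no test). For SLC39A8, the SE of 0.44 was large beside its log2 fold change of -0.73 in MLC. The absence of calls therefore does not show that the layers differed from IL-1β alike. The size of layer difference that could be detected was not tested.

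Ordered by mean level, SLC39A8 went from SLC with IL-1β (20.1 ± 2.93 CPM, SD, n = 3) over SLC with IL-1β+LOXL2 (17.3 ± 7.60) and MLC with IL-1β (13.7 ± 4.54) to MLC with IL-1β+LOXL2 (8.32 ± 1.17). Each group in this order differed from the next by less than the SD of SLC with IL-1β+LOXL2. MTF1 formed 2 levels, at 26.1 ± 0.620 CPM in MLC and 25.9 ± 1.72 in SLC with IL-1β, and 19.4 ± 1.47 in MLC and 17.9 ± 1.16 in SLC with IL-1β+LOXL2 (SD, n = 3 each). The layer difference passed in neither treatment. SLC39A7 ran from 138 ± 5.44 CPM in SLC with IL-1β over 182 ± 5.47 in MLC with IL-1β and 185 ± 33.7 in SLC with IL-1β+LOXL2 to 219 ± 22.3 in MLC with IL-1β+LOXL2, and the middle pair differed by less than their spread. SLC39A10 ran from 7.75 ± 1.22 CPM in MLC and 7.30 ± 0.959 in SLC with IL-1β to 3.81 ± 3.01 in SLC and 2.25 ± 0.955 in MLC with IL-1β+LOXL2, and within each treatment the layers differed by less than their spread.

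Among themselves, the members formed no single pattern over the 12 libraries. Pearson's r of log2 CPM was 0.97 between SLC30A1 and SLC39A6 and 0.92 between MTF1 and SLC39A14, but -0.94 between SLC39A7 and SLC30A7 and -0.067 between SLC39A6 and SLC39A8. The 12 points share the 4 groups and the depth of each library, so these values are descriptions. The genes most like each member over the same libraries were DNAJB14 (r = 0.98), RPS6KA3 (0.98) and MDM2 (0.97) for SLC39A10, ULK1 (0.93), TNFAIP8 (0.92) and HK1 (0.91) for SLC39A8, and PTPRJ (0.97), LAMA4 (0.96) and PDE4D (0.95) for SLC39A14. For SLC30A1 they were NPR3 (0.99), NUS1 (0.98) and ZNF532 (0.98), and for MTF1 they were USP49, ASB1 and KMT2D (0.96 each).

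Of 27 other zinc gene names (further SLC39 and SLC30 transporters, TMEM163 and metallothioneins), 18 were in the tables and 9 had enough reads in each of the 4 comparisons between groups. The 9 were the same genes except that MT3 was tested with LOXL2 in SLC and SLC39A4 in the other 3 comparisons. In MLC, 2 fell with LOXL2 and 0 rose, against 11.8% and 9.81% of all genes. SLC39A9, an importer of the Golgi and cell surface, had a log2 fold change of -0.43 (edgeR adjusted p = 0.0327), and SLC30A9, known for zinc export from mitochondria, one of -0.39 (adjusted p = 0.0238). Each passed in 6 of 13 alternative fits, and in neither the fits without the first, the second or the third MLC IL-1β library nor those without the second or the third LOXL2 library. Neither passed in the fit on all 12 libraries (adjusted p = 0.177 and 0.175) or with the span trend removed, where the log2 fold changes were -0.27 for SLC39A9 (adjusted p = 0.0811) and -0.15 for SLC30A9 (adjusted p = 0.182). In SLC 0 of 9 passed, as did 0% of all genes, with 2 higher and 3 lower at an unadjusted p under 0.05, against 23.1% and 20.2%. The metallothionein names, which would include the best known MTF1 targets, could be matched by symbol only for MT3 and MT4. MT3 had between 1 and 44 counts in a library and MT4 had 0 in all 12, so metallothioneins named in this way gave no readout of MTF1.

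Between the layers under IL-1β, 2 of the 9 tested were higher in MLC and 2 lower, where 24.2% of all genes were higher and 22.7% lower. SLC39A1, an importer of many cell types, was lower at 165 to 178 CPM against 198 to 214 CPM in SLC (log2 fold change -0.27, edgeR adjusted p = 0.00190) and passed in all 13 alternatives. SLC39A4, the importer of the intestine that is mutated in acrodermatitis enteropathica, had 12, 9 and 16 counts in MLC against 5, 3 and 4 in SLC (log2 fold change 2.07, adjusted p = 0.00206). SLC39A5 was lower in MLC (-0.92, edgeR adjusted p = 0.0116). Its call was lost without the first SLC or the third MLC library and in the fit on all 12 libraries (largest adjusted p 0.0652). SLC39A3 was higher (0.25, edgeR adjusted p = 0.0372) but passed in only 2 of 13 alternatives. The call was lost without any 1 of the 6 libraries (largest adjusted p over the alternatives 0.191). It was also lost with DESeq2, no filter, the replicate block, the span trend removed or the fit on all 12 libraries. Under IL-1β+LOXL2, SLC39A4 (1.64, adjusted p = 0.0434) and SLC39A5 (-1.30, adjusted p = 0.0270) passed again, where 9.27% of all genes were called higher and 6.83% lower. Neither passed without the third SLC library or any 1 of the 3 MLC libraries, SLC39A5 also not without the second SLC library and SLC39A4 also not with DESeq2 or without the filter on low counts (largest adjusted p over the alternatives 0.155 and 0.102).

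Matrix-degrading enzymes that are known downstream of SLC39A8 and MTF1 in cartilage were read from a list of 5 (MMP3, MMP9, MMP12, MMP13 and ADAMTS5), of which 3 were tested in SLC and 4 in the other comparisons between groups. With LOXL2, 1 of 4 fell in MLC, where 11.8% of all genes did, and 0 of 3 in SLC, where 0% did. That 1 was the aggrecan-cleaving ADAMTS5, at 161, 214 and 172 CPM with IL-1β and 128, 91.5 and 68.5 CPM with IL-1β+LOXL2 (log2 fold change -0.93, edgeR adjusted p = 0.0190). It did not pass without the first or the third MLC IL-1β library, without the second LOXL2 library or in the fit on all 12 libraries (largest adjusted p over the alternatives 0.174). In SLC its level was 265, 254 and 198 CPM against 113, 71.2 and 79.4 CPM (log2 fold change -1.46), without overlap but not past the threshold. MMP9 had at most 9 counts in a library and was not tested.

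Under IL-1β, MMP3, MMP12 and MMP13 were higher in MLC than in SLC and ADAMTS5 lower, against 24.2% and 22.7% of all genes, while SLC39A8 was lower there and MTF1 had a log2 fold change of 0.014. MMP3, stromelysin, stood at 188, 322 and 218 CPM in MLC and at 6.30, 5.59 and 8.09 CPM in SLC (log2 fold change 5.19, edgeR adjusted p = 8.39e-11). The collagenase MMP13 had a log2 fold change of 2.98 (adjusted p = 7.22e-05). MMP12 had 17, 26 and 25 counts in MLC and 0, 0 and 2 in SLC. The log2 fold change of ADAMTS5 was below 0 (-0.39, edgeR adjusted p = 0.010). Its call was lost without the first SLC library, with DESeq2 and in the fit on all 12 libraries (largest adjusted p over the alternatives 0.234). Under IL-1β+LOXL2, MMP3 (4.98, adjusted p = 4.79e-04) and MMP12 passed again, MMP12 with 32, 8 and 12 counts in MLC against 0, 4 and 0 in SLC. There 9.27% of all genes were called higher, and MMP12 did not pass without the third SLC library or any 1 of the 3 MLC libraries (largest adjusted p 0.0855).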

How the data were processed

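RNA-seq counts of 12 goat TMJ cell libraries (3 in each of 4 groups) were used. The authors deposited 1 table of unnormalized read counts per layer, made from poly-T selected RNA, trimmed paired-end reads, the ARS1.2 goat genome, and HISAT2 and featureCounts per the submitters' processing notes. Settings for strand and multi-mapped reads are not given in the sources used here. The labels name an RNeasy kit and the methods TRIzol. Gene positions are from RefSeq for ARS1.2. No sequences were used here.

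The members and lists were chosen with earlier results of these data known. Named are all 10 members, from each other list at most 5 genes per comparison that passed, ordered by absolute fold change, and the 3 genes most correlated (log2 CPM, prior count 2) with each of 5 members. Groups follow the labels. Each comparison of 2 groups was fitted on its own 6 libraries by edgeR's quasi-likelihood test (edgeR 4.0.16, R 4.3.3). Libraries were scaled by TMM, genes kept by filterByExpr (min.count 10, min.total.count 15), and p-values adjusted by Benjamini-Hochberg over all tested genes (threshold 0.05). The interaction used all 12 libraries. The SE was taken as |log2 fold change|/√F. All p-values are two-sided. Alternatives were DESeq2 size factors, no filter, at least 10 counts in every library, DESeq2 1.42.0 (Wald), a block for the replicate number, an offset that takes out each library's lowess trend on gene span (fraction 0.3), 1 fit over all 12 libraries, and leaving out each library. Where that leaves 2 libraries in a group, edgeR pools the spread over groups. Between the LOXL2 groups, deviations of same-numbered libraries correlated at 0.605, 0.206 and 0.168, and those of other numbers at -0.566 to 0.450. Of the 3 SLC libraries there, 2 correlated best with their own number. The numbers were treated as pairs there, a pairing taken from these correlations and not from the labels. In the other pairs of groups at least 1 correlation was under 0.1. Every replicate pair differed by more than sampling noise (lowest chi-square/df 2.30). Procedures were tested on simulated counts.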

Additional observations from a re-analysis of the deposited data

How the results depend on the processing

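With DESeq2's Wald test, SLC calls with LOXL2 rose from 0 to 2197 higher and 1908 lower genes (6 lower members). In MLC with LOXL2 it called 1 member higher, where it called 12.5% of all genes higher. Between layers it called 1 member higher under IL-1β, where edgeR called 24.2% of all genes higher. Under IL-1β+LOXL2 it called 1 member lower, where edgeR called 6.83% of all genes lower. The fit on all 12 libraries gave 3274 higher and 2691 lower in SLC (members 1 and 6), 0 and 0 in MLC (members 0 and 0), 2063 and 1652 between layers under IL-1β (members 1 and 0), and 2117 and 2082 under IL-1β+LOXL2 (members 2 and 1). The replicate block gave 2030 higher and 1857 lower between the LOXL2 groups (members 3 and 1). With it 1 member was higher in MLC with LOXL2 (SLC39A7, adjusted p = 0.0490 from edgeR), where 13.5% of all genes were higher. Between layers under IL-1β 1 member was higher with it, where edgeR without the block called 24.2% of all genes higher. In MLC with LOXL2 and between layers under IL-1β the numbers were not treated as pairs. Same-numbered libraries correlated at up to 0.110 in MLC and up to -0.0462 between layers under IL-1β. Of the 3 MLC IL-1β libraries, 2 correlated best with their own number in the LOXL2 group, the same count as between the LOXL2 groups. Of the 3 SLC IL-1β libraries, 0 did so against MLC. Without the span trend, 937 genes and 3 members were lower in MLC with LOXL2. Between the LOXL2 groups 1 member was then higher, where edgeR with the trend kept called 9.27% of all genes higher. SLC39A8 was at 0.17 and SLC39A13 at -0.10 in SLC, and SLC39A13 at -0.040 between layers under IL-1β. Leaving out 1 library at a time gave, for SLC with LOXL2, 0 to 4439 higher and 0 to 4410 lower genes (members 0 to 1 and 0 to 7). For MLC it gave 0 to 3276 and 0 to 3377 (members 0 to 2 and 0 to 7). Between layers under IL-1β it gave members 1 to 3 and 1 to 2. There edgeR with no library left out called 24.2% of all genes higher and 22.7% lower. Under IL-1β+LOXL2 it gave 695 to 2388 and 439 to 2291 genes (members 0 to 3 and 0 to 1). The interaction had 0 to 1 gene lower. The range of all-gene calls was widest without the first SLC LOXL2 library. Over the libraries left out, fold changes that turned sign ran, for SLC39A8 in SLC with LOXL2, from -0.49 to 0.085. Between layers under IL-1β they ran from -0.0056 to 0.075 for SLC39A13 (with -0.0018 and -0.00081 between), from -0.045 to 0.17 for SLC39A10 (with -0.0088) and from -0.034 to 0.057 for MTF1. Under IL-1β+LOXL2 they ran from -1.15 to 0.16 for SLC39A10 and from -0.26 to 0.054 for SLC30A7 (with 0.017), and in the interaction from -1.23 to 0.063 for SLC39A10. All other member values kept their sign in every alternative. Where not named above, the cause was not tested. SLC39A10, at 24 to 169 counts, was measured least precisely.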

Other observations

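Manganese and iron are carried by some of the same proteins as zinc, and 8 of 10 listed carriers and stores of these metals could be tested in the comparisons between groups. In MLC, the ferritin genes FTL and FTH1, which encode the iron store, rose with LOXL2 and the transferrin receptor TFRC, which takes up iron, fell, 2 and 1 of 8 where 9.81% of all genes rose and 11.8% fell. FTL stood at 1937, 1987 and 1791 CPM with IL-1β and at 2074, 2623 and 2952 CPM with IL-1β+LOXL2 (log2 fold change 0.42, edgeR adjusted p = 0.0309). FTH1 had a log2 fold change of 0.40 (adjusted p = 0.0483) with overlapping groups. TFRC stood at 170, 183 and 177 CPM and at 160, 125 and 117 CPM (-0.40, adjusted p = 0.0317). None of the 3 passed without the first, the second or the third MLC IL-1β library, without the second or the third LOXL2 library, or with the span trend removed (largest adjusted p over the alternatives 0.182, 0.319 and 0.278). In SLC 0 of 8 passed with edgeR, and 1 was higher and 1 lower at an unadjusted p under 0.05, against 23.1% and 20.2% of all genes.

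Between the layers under IL-1β, 4 of the 8 were higher in MLC and 3 lower, where 24.2% of all genes were higher and 22.7% lower. The iron exporter SLC40A1 (ferroportin), which is known to carry manganese too, stood at 60.2, 51.9 and 58.4 CPM in MLC and at 18.8, 19.2 and 16.6 CPM in SLC (log2 fold change 1.65, edgeR adjusted p = 1.28e-09). It passed in all 13 alternatives, and again under IL-1β+LOXL2 (1.80, adjusted p = 5.16e-04). FTL (0.60) and ATP13A1 (0.49) were also higher in MLC and passed in all 13. FTH1 was lower in MLC (-0.44) and the ferrireductase STEAP3 was lower too (-0.40), and each passed in 12 of 13. The 2 ferritin chains therefore differed between layers in opposite directions. Ferritin genes have near-identical processed copies, so how reads were split among them is uncertain.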
